A study of Mus musculus with 3 samples.

Results

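The 84 protein-coding genes of the mouse cytoplasmic ribosome whose names follow the *Rpl*, *Rps*, *Rplp* or *Rpsa* pattern were examined among the 55401 genes of the bulk RNA-Seq count files. They were chosen by gene name in GENCODE M21 and not by any measured value, and comprise 52 genes of the large (60S) subunit and 32 genes of the small (40S) subunit. The libraries came from maxillary processes of E10.5 *Wnt1cre; Rosa26Dlx2/-* mouse embryos. There the *Wnt1* driver expresses Cre, which removes a stop cassette from a *Dlx2* transgene under the CAG promoter at *Rosa26*, so that *Dlx2* is overexpressed (OE) in cells of neural crest origin, while the epithelium, endothelium and blood of the process keep the unrecombined allele. There were 3 libraries of this 1 group, named replicates 1, 2 and 3, prepared from independent RNA samples, and whether embryos were pooled is not given in the sources used here. Libraries of wild-type embryos were not used here, so that every comparison below is between OE libraries and none is between genotypes.

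A ribosome holds 1 copy of nearly every one of these proteins, and the genes are transcribed at high level in every growing cell. Their mRNAs begin with a run of pyrimidines, the 5′ terminal oligopyrimidine (TOP) motif, through which the mTOR pathway sets how strongly they are translated. Cranial neural crest is known to be sensitive to faults in making ribosomes: Diamond-Blackfan anaemia, caused by loss of 1 copy of genes such as *RPS19*, can include a cleft palate, and Treacher Collins syndrome arises from mutations in factors of ribosomal RNA synthesis.

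Counts on genes numbered 36544554, 35351031 and 40057435 in replicates 1, 2 and 3. *Dlx2* was read at 235, 200 and 185 counts per 1000000 (CPM, with TMM scaling), and all 7 mesenchyme markers of a fixed list, *Dlx2* itself among them, were found in each library, with a summed level of 1761, 1757 and 1866 CPM. Single markers moved apart within this sum, as *Prrx1* was at 627, 578 and 423 CPM and *Twist1* at 317, 339 and 468 CPM. The libraries stood apart in other respects. The 9 neuron markers summed to 272 CPM in replicate 1 against 24.1 and 36.3 CPM in replicates 2 and 3, the 5 eye and forebrain markers to 20.9 against 139 and 132 CPM, and the 5 pigment cell markers to 0.646, 8.04 and 91.6 CPM. The 6 erythroid markers summed to 2126, 3963 and 4965 CPM, the 4 endothelium markers to 218, 235 and 142 CPM, the 4 epithelium markers to 284, 192 and 214 CPM and the 4 macrophage markers to 12.1, 16.6 and 17.6 CPM, and none of the markers in these lists was at 0 in all libraries. Mitochondrial genes held 1.21%, 4.38% and 3.96% of the counts. *Xist*, which is transcribed from the inactive X chromosome of females, was at 669 CPM in replicate 1 and at 0.307 and 0.563 CPM in the other libraries, in which 4 Y-linked genes summed to 145 and 110 CPM against 0 counts in replicate 1. The part of these differences in the results below was not tested, and in bulk tissue fewer cells of a type and less RNA per cell cannot be told apart.

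The ribosomal protein genes held 5.41% of the counts on genes in replicate 1, 6.61% in replicate 2 and 11.4% in replicate 3, or 7.79% ± 3.15 (SD, n = 3). The widest 95% Wilson interval of these shares, which covers counting error only, was that of replicate 3 at 11.35% to 11.37%, so that the share there, 2.10 times that in replicate 1, was apart from both others. Large subunit genes made up 56.3%, 55.6% and 55.3% of the members' counts. The split between the subunits thus hardly differed between libraries whose summed level did.

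Of the 84 members, 80 had mean counts of 10 or more and were tested, and *Rpl10l*, *Rpl3l*, *Rpl39l* and *Rpl24* were below this limit. The counts of 80 of the 80 differed between the libraries beyond counting noise (chi-square test of the counts against the scaled library sizes, Benjamini-Hochberg adjusted over all genes tested), where 81.5% of all 17115 genes tested did so, 97.2% of genes with a mean level of at least 100 CPM and 100% of the 184 other genes that were both short (at most 2000 exonic bases) and abundant (at least 100 CPM). This test compares libraries with counting error alone, and at these depths it calls most abundant genes. Not all 80 tested members were themselves short and abundant: with members included, 225 genes met both limits. Median exonic length was 1805.5 bases in tested members and 1549 bases in the 184 other genes. These 184 genes were thus not matched to the members. The members' order of libraries was then looked at. All 80 had their lowest CPM in replicate 1 and their highest in replicate 3, an order found in 34.1% of all genes tested and in 81.5% of the other short and abundant genes.

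The members' log2 CPM in replicate 3 against the mean of replicates 1 and 2 had a median of 1.19, with the middle 50% of the genes between 0.95 and 1.34 and the extremes at 0.18 and 1.75. The same difference was -0.88 for replicate 1 and -0.30 for replicate 2 against the respective other libraries, while the medians over all genes tested were 0.01, 0.01 and -0.01 for replicates 1, 2 and 3. Of the 80 members, 58 were at least 2-fold higher in replicate 3, against 13.0% of all genes tested and 40.2% of the other short and abundant genes, whose own median was 0.82. Exonic length and GC content moved with the ratio, the median of all 3886 tested genes of at most 2000 exonic bases being 0.66 in replicate 3. With a smooth trend on both removed, the members' median in replicate 3 was 0.81 against 0.22 for the other short and abundant genes, and 80 of 80 stayed above 0, where 51.4% of all genes and 70.7% of the other short and abundant genes did. Exonic length here takes in every annotated exon of a gene, not 1 mRNA. *Rps15a*, with 6270 exonic bases but 640 in its representative mRNA, rose from 1.11 to 1.56, though the members' median fell. A trend on mRNA length was not tested. The members were also ordered the same way in the libraries without replicate 3, since all 80 had a higher CPM in replicate 2 than in replicate 1 (50.2% of all genes tested and 88.0% of the other short and abundant genes) at a median of 1.30-fold.

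**Figure D1:**
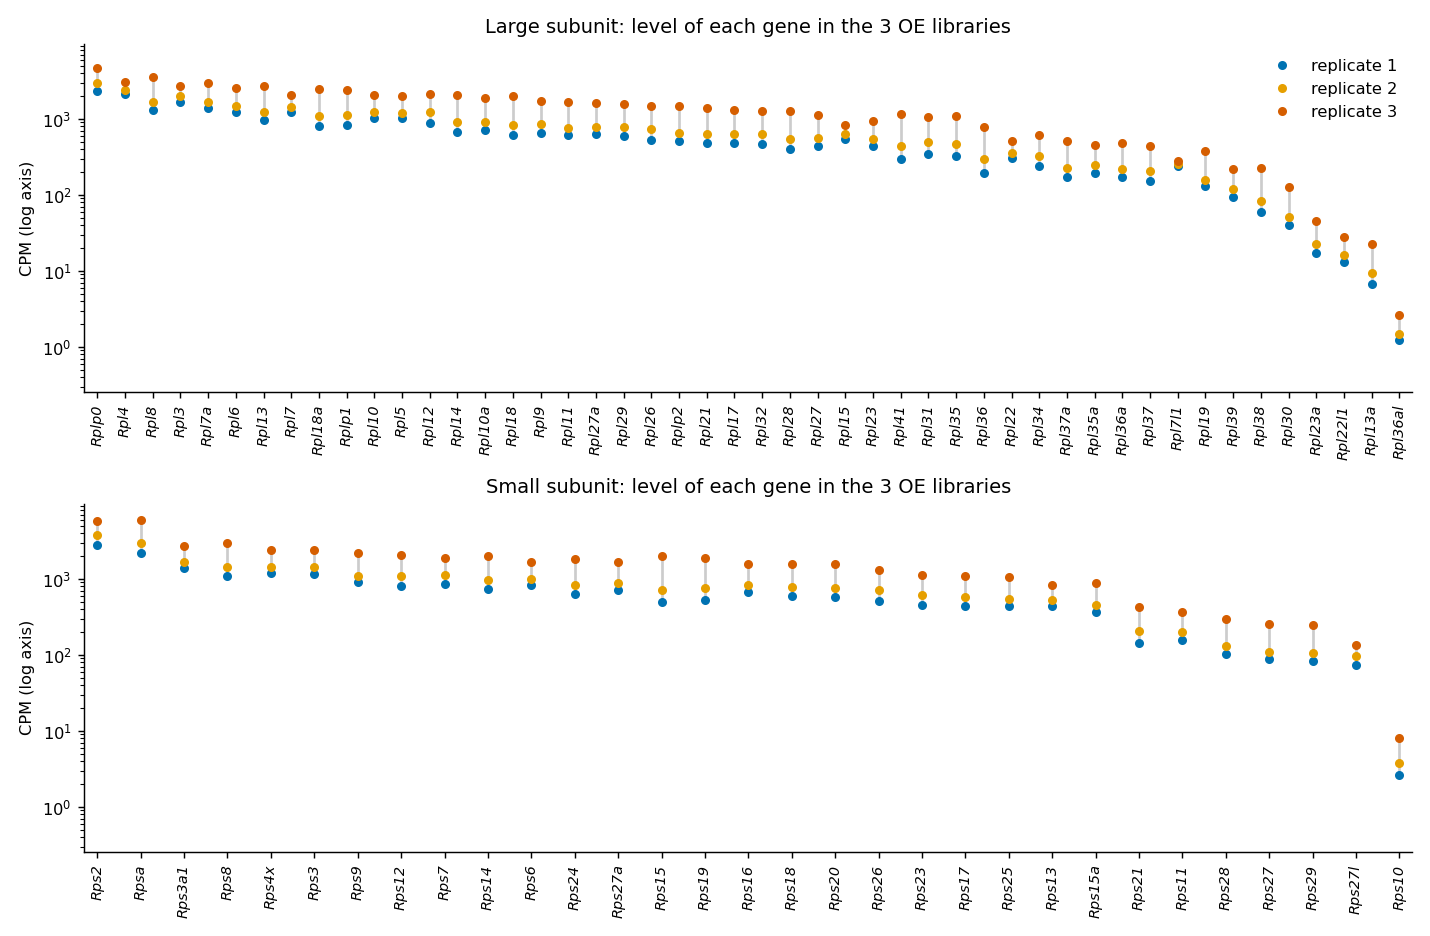
Level of 79 of the 80 tested ribosomal protein genes in CPM (log axis) for the large (top) and small (bottom) subunit, ordered by mean level; points are the 3 OE libraries and grey lines join their lowest and highest value. Replicate 3 is the highest and replicate 1 the lowest point of every gene, closest together for *Rpl7l1* (241 to 282 CPM).

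**Figure D2:**
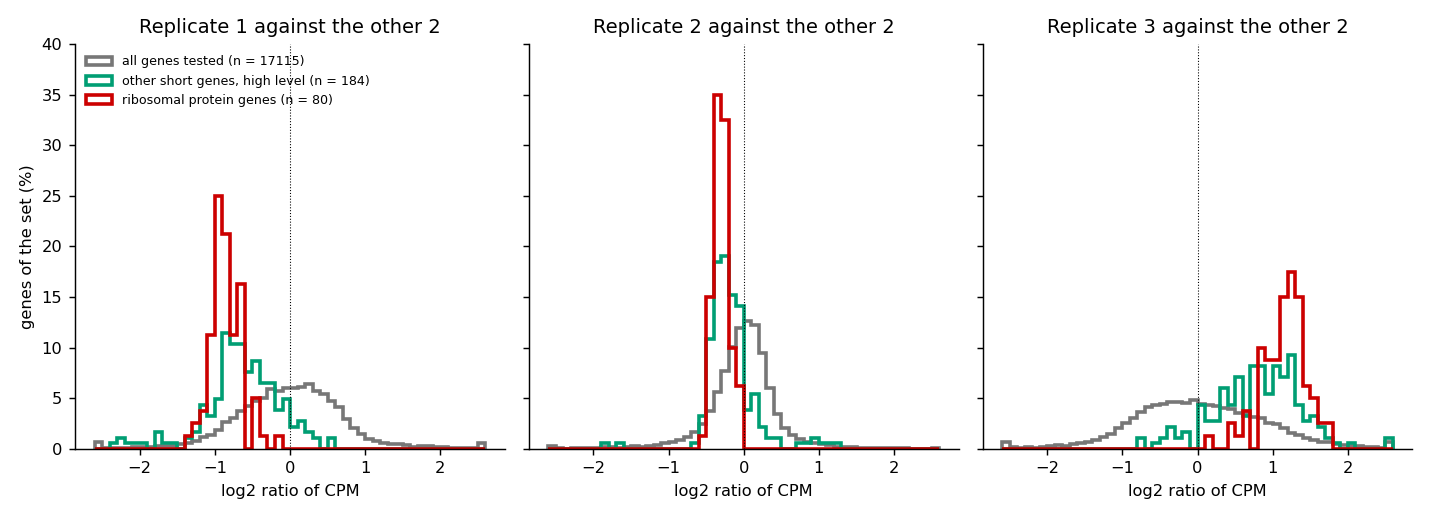
Distribution of the log2 ratio of each OE library against the mean of the other 2, as the percentage of genes of the set in bins of 0.1, for 80 ribosomal protein genes, 184 other genes of at most 2000 exonic bases and at least 100 CPM, and all 17115 genes tested; values beyond 2.6 are placed in the end bins. The ribosomal protein genes lie around -0.88, -0.30 and 1.19, and the other short and abundant genes are displaced to the same sides with a wider spread.

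The members' proportions to each other were then compared between the libraries. Across the 79 members with mean counts of 100 or more, log2 CPM correlated between replicates 1 and 2 with a Pearson's r of 0.999, between replicates 1 and 3 of 0.984 and between replicates 2 and 3 of 0.990, given as a description since the genes share libraries and a wide range of levels. In replicate 3, 70 of the 79 lay within 0.5 (log2) of the members' own median ratio, and the SD around it was 0.299, with extremes of -1.01 and 0.56. The 9 others included both ends of the order described next.

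The 5 members with the largest ratio between the highest and lowest library were *Rps15*, *Rpl36*, *Rpl41*, *Rpl38* and *Rps19*. *Rps15*, which encodes a protein of the small subunit head (chromosome 10 of mm10, 80292453 to 80294114), was at 492, 710 and 1987 CPM in replicates 1, 2 and 3. *Rpl36* (chromosome 17, 56613416 to 56614243) was at 195, 293 and 789 CPM, and *Rpl41*, which encodes the smallest ribosomal protein, at 300, 447 and 1170 CPM. In these 3 genes the highest library exceeded the lowest 4.04-fold, 4.04-fold and 3.90-fold, and replicates 1 and 2 lay much closer to each other than to replicate 3. *Rpl38*, mutated in the Tail-short mouse with its skeletal defects, was at 60.5, 83.4 and 227 CPM (3.75-fold), and *Rps19*, the gene most often mutated in Diamond-Blackfan anaemia, at 529, 745 and 1901 CPM (3.60-fold).

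The 5 members with the smallest ratio were *Rpl7l1*, *Rpl4*, *Rpl15*, *Rpl3* and *Rpl22*. *Rpl7l1*, a paralog of *Rpl7*, was nearly level at 241, 257 and 282 CPM, a factor of 1.17 between the libraries, and its log2 ratio in replicate 3 was 0.18, or 0.02 without scaling factors. *Rpl4*, which lines the exit tunnel of the large subunit (chromosome 9, 64173375 to 64178666), was at 2151, 2432 and 3038 CPM (1.41-fold), and *Rpl3*, next to the peptidyl transferase centre, at 1677, 1996 and 2725 CPM (1.62-fold). *Rpl15* stood at 540, 632 and 826 CPM (1.53-fold) and *Rpl22*, which also has roles outside the ribosome in lymphocytes, at 308, 353 and 511 CPM (1.66-fold). Even in these genes replicate 3 was the highest library, and in *Rpl4* its excess was within a log2 difference of 0.41.

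Coding sequence composition and length moved with this order. Across the 79 members, the log2 ratio in replicate 3 correlated with the share of codons ending in G or C (GC3) at a Pearson's r of 0.542 and a Spearman's rho of 0.509, and with log2 coding length at -0.513 (rho -0.462). The third of the members lowest in GC3 (26 genes, 41.8% to 58.5%) had a median log2 ratio of 1.01, the 27 in the middle 1.22 and the 26 highest (66.9% to 87.6%) 1.31. After removal of the trend on exonic length and GC content over all genes, the correlation with GC3 was -0.216 and these medians were 0.91, 0.83 and 0.72, so that the order by GC3 turned around while the members as a whole stayed above 0. The correlation with coding length was then -0.244, while that with exonic length went from -0.299 to 0.547 and that with GC content from 0.449 to -0.433. After the trend was removed, *Rpl15* (0.11) and *Rpl7l1* (0.17) were the lowest members.

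The opening of the coding sequence of 2 genes from either end of the order is shown, since base composition was, beside coding length, a feature that moved with it before the trend was removed. Each sequence is the first 90 coding bases of 1 representative GENCODE M21 transcript, 5′ to 3′, with G or C at the end of a codon in capitals.
Rps15: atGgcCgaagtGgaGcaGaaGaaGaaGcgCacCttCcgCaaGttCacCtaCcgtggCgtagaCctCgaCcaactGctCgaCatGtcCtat
Rpl36: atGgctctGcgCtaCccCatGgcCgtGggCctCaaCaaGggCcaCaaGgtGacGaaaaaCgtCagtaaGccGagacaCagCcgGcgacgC
Rpl4: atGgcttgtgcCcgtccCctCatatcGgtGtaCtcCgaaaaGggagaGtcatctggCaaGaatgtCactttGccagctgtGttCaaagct
Rpl7l1: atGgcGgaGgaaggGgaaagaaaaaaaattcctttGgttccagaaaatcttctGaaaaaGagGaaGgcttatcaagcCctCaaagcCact

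Of the 30 codons shown, 25 end in G or C in *Rps15* and in *Rpl36*, 16 in *Rpl4* and 12 in *Rpl7l1*. Over the whole coding sequence GC3 was 84.8% in *Rps15* (435 bases) and 87.6% in *Rpl36* (315 bases), against 54.7% in *Rpl4* (1257 bases) and 58.5% in *Rpl7l1* (738 bases). *Rps19* does not follow this order, with a GC3 of 62.1% and a log2 ratio of 1.60, nor does *Rpl22* with 64.8% and 0.63.

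**Figure D3:**
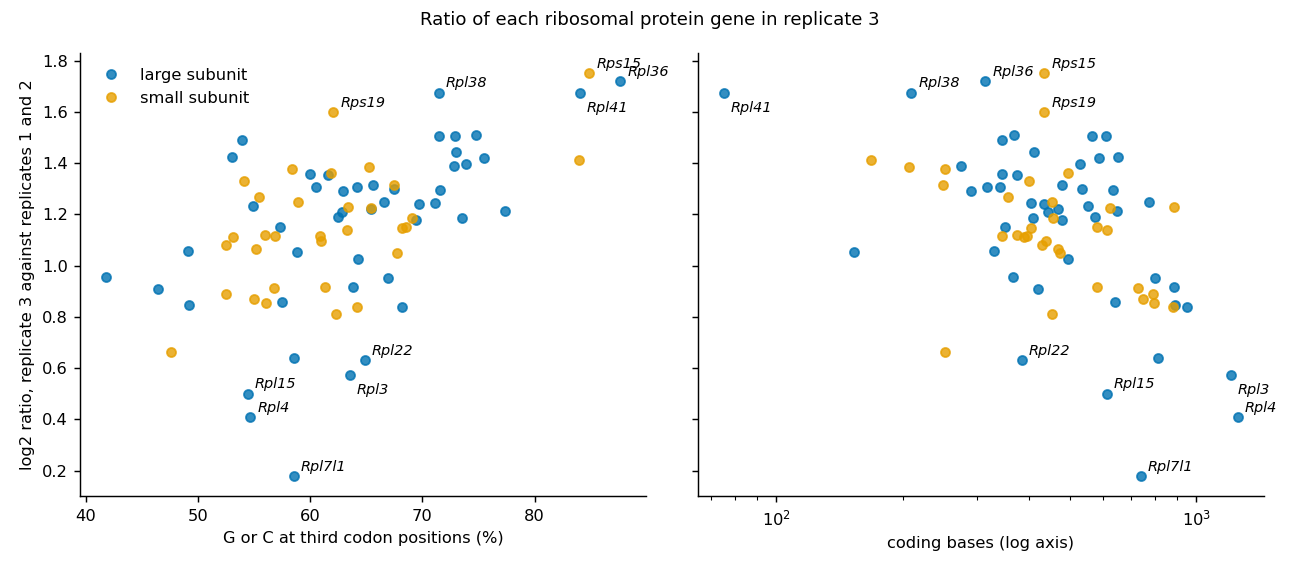
Log2 ratio of CPM in replicate 3 against the mean of replicates 1 and 2 for 79 ribosomal protein genes with mean counts of 100 or more, against the percentage of codons ending in G or C (left) and against coding length on a log axis (right); colours mark the subunit and the 10 genes with the largest and smallest ratios are named. The ratio is higher at high GC3 (r = 0.542) and lower in long coding sequences (r = -0.513).

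Described by place in the ribosome, every group showed the same order of libraries, as all 80 tested members did. Counts of called genes in these groups are read against the 81.5% of all genes tested and the 97.2% of genes of at least 100 CPM that the same test called, and so set no group apart. The P stalk, which recruits elongation factors, had 4 of 4 members called and higher in replicate 3. Its base *Rplp0* was at 2307, 2975 and 4682 CPM, while *Rplp1* was at 834, 1125 and 2396 CPM and *Rplp2* at 509, 660 and 1484 CPM. The log2 ratio in replicate 3 was 0.84 for *Rplp0* but 1.31 and 1.36 for the smaller proteins P1 and P2, which the ribosome holds as dimers, and 1.03 for *Rpl12* at the stalk's foot. *Rpl5* and *Rpl11*, which carry 5S ribosomal RNA and bind Mdm2 when free of the ribosome, both passed the test, with log2 ratios of 0.84 and 1.30. *Rpl5* was at 1027, 1214 and 2006 CPM and *Rpl11* at 607, 770 and 1681 CPM.

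The 9 members at the exit tunnel or its rim were all called, with a median log2 ratio of 1.23 and the widest range of any group, from 0.41 in *Rpl4* to 1.51 in *Rpl35*. At the mRNA entry, *Rps2* and *Rps3* had ratios of 0.84 and 0.91, and *Fau*, set in this list though its name lies outside the pattern, had 1.65. At the mRNA exit, *Rps26*, *Rps28* and *Rps14* ranged from 1.12 to 1.39, and *Rps26*, whose protein contacts the mRNA upstream of the start codon, was at 513, 715 and 1314 CPM. The beak members *Rps10*, *Rps12* and *Rps27a* ranged from 1.07 to 1.36, of which *Rps27a*, made as a fusion with ubiquitin, was at 703, 884 and 1649 CPM. The 9 genes of the Diamond-Blackfan list had a median of 1.15, close to the 1.19 of all tested members. The medians of the large and small subunit as wholes were 1.23 and 1.13, a smaller difference than the spread among either subunit's genes.

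The 4 X-linked members, *Rpl10*, *Rps4x*, *Rpl36a* and *Rpl39*, ranged in log2 ratio from 0.86 to 1.31, inside the range of the other members, and the library with *Xist* was their lowest as it was for all 80 tested members. Ribosomal proteins whose names lie outside the pattern were set beside the members. *Fau*, a ubiquitin-like fusion with the small subunit protein eS30, was at 415, 538 and 1487 CPM, and *Rack1*, a signalling scaffold on the 40S subunit, at 1396, 1695 and 2683 CPM. Both shared the members' order of libraries.

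Other genes of the translation system lay on both sides of 0. Of 14 further genes with TOP mRNAs that encode no ribosomal protein, 7 were higher in replicate 3 and 7 lower, with a median of 0.04 (log2), and 7 had the members' order of libraries. The elongation factor subunits *Eef1d*, *Eef1g* and *Eef1b2* were at the upper end with ratios of 1.29, 0.95 and 0.89, while *Pabpc1*, the poly(A)-binding protein, was at 1682, 1612 and 955 CPM, a log2 ratio of -0.79. Of 40 genes for ribosomal RNA synthesis and ribosome assembly, 23 were higher in replicate 3 and 1 by at least 2-fold, with a median of 0.06, and 21 had the members' order. Of all genes tested, 49.7% were higher in replicate 3, 13.0% by at least 2-fold, and 34.1% had that order. These lists were described and not tested as sets.

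**Figure D4:**
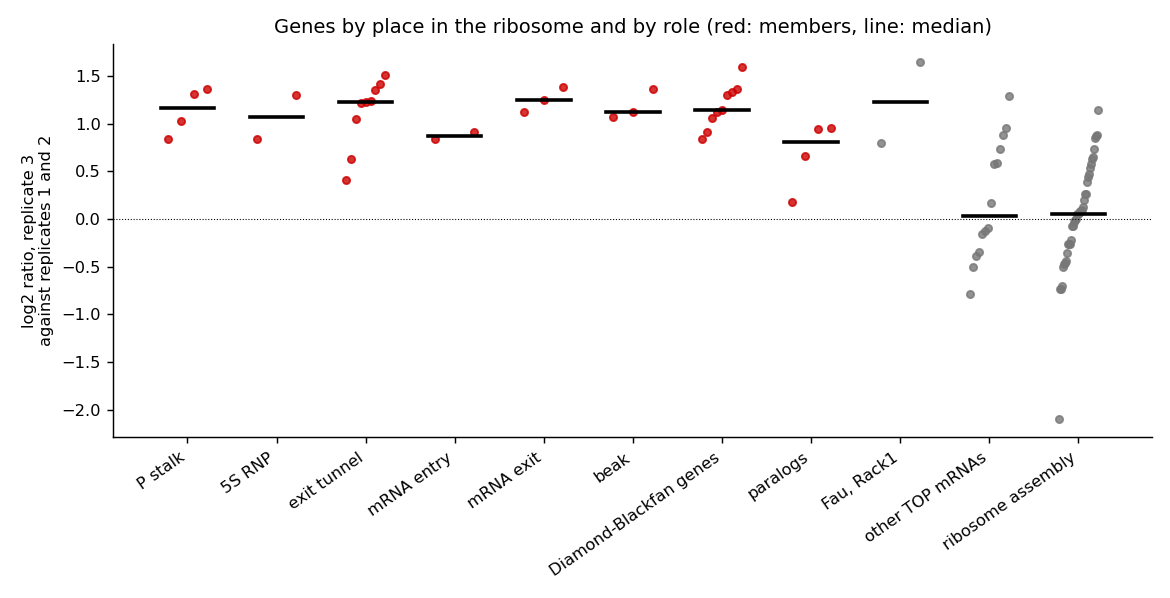
Log2 ratio of CPM in replicate 3 against the mean of replicates 1 and 2 for single genes of the lists with mean counts of 10 or more, grouped by place in the ribosome and by role; red points are ribosomal protein genes of the name pattern, grey points other genes, and lines are medians. Every red point is above 0, whereas the other TOP mRNAs and the ribosome assembly genes spread on both sides of 0.

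The letters around the annotated transcription start were compared because the members moved together. RefSeq promoter sequences of GRCm38.p6 (250 bases before to 50 after the start) were matched by symbol for 64 of the 84 members, and a gene was counted where any of its annotated starts held the letters on either strand. CCGGAAG, letters bound by ETS factors such as GABPA, occurred in 26 of 64 members (40.6%) and in 9.93% of the 27025 genes of the table. GGGCGG, a GC box, occurred in 40 (62.5%) against 38.2%, and AAGATGGC, the core of the YY1 motif, in 6 (9.38%) against 3.19%. CACGTG, the E-box of Myc, occurred in 6 members (9.38%) against 8.09%, and TATAAA in 7 (10.9%) against 15.7%. TAATTA, letters preferred by homeodomain proteins such as Dlx2, occurred in 1 member (1.56%) and in 6.12% of the table. The median GC content of these promoters was 57.0% in members and 52.8% in the table, and its part in these shares was not tested. The start base was C in 32.8% of members and in 18.9% of the table, and a run of at least 5 pyrimidines across the start was present in 20 (31.2%) against 11.8%.

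Windows of 30 bases, 15 before and 15 from the annotated start on the gene's strand, show the pyrimidine run in capitals for 5 members that have one and its absence at the annotated start of *Rplp0*.
Rpl7a: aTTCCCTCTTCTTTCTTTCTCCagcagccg
Rpl27a: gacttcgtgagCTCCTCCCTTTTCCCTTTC
Rpl35: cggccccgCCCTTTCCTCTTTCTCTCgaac
Rplp2: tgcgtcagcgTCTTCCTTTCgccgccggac
Rps6: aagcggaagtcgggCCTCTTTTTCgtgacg
Rplp0: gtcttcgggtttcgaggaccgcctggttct

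These windows lie at chr2:26910792-26910821 (plus strand), chr7:109519180-109519209 (plus), chr2:39005117-39005146 (minus), chr7:141447636-141447665 (plus), chr4:86857353-86857382 (minus) and chr5:115559452-115559481 (plus). Since the run is read at the annotated base, a start placed a few bases away loses it, and in *Rplp0* pyrimidines lie within the window but not across its centre. The 20 tested members with a run had a median log2 ratio in replicate 3 of 1.26 (middle 50% 1.10 to 1.37) and the 40 without one 1.11 (0.88 to 1.30). For CCGGAAG the medians were 1.21 with (25 genes) and 1.11 without (35 genes). Both splits overlapped in most of their range.

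Levels between genes were compared per kilobase of exons. The highest members by mean were *Rplp1*, *Rps2*, *Rplp0*, *Rps3a1* and *Rps15* at 2909 ± 1664, 2238 ± 835, 2002 ± 738, 1954 ± 725 and 1687 ± 1283 CPM per kb (SD, n = 3). *Rps15* was among them through replicate 3 (780, 1126 and 3155 CPM per kb in replicates 1, 2 and 3). *Rpl8* (979 and 1245) and *Rpl4* (1072 and 1212) were above it in replicates 1 and 2. The ranges over the libraries overlapped in 80 of the 83 neighbouring pairs of this order, as the members moved together between libraries. Within libraries, 25 of the 83 pairs kept their order in all 3, among them *Rplp1* over *Rps2* and *Rps2* over *Rplp0*. The 5 lowest were *Rpl36al*, *Rpl24*, *Rpl39l*, *Rpl3l* and *Rpl10l*. Per kilobase of coding bases, which leaves out retained introns and other noncoding exons of the annotation, *Rpl41* had the highest mean at 4630 ± 3375 CPM per kb. *Rps2*, *Rplp1*, *Rpsa* and *Rplp0* followed. *Rpl41* was above *Rps2* in replicate 3 only (8478 against 6369), and below it in replicates 1 (2172 against 3069) and 2 (3240 against 4122). The median over members was 1733 CPM per coding kb with the middle 50% of the genes between 922 and 2277. Beside replicate 3, the first place of *Rpl41* rests on this choice of length, since reads on its noncoding exons are counted too. Per kilobase of 1 representative mRNA it stood at 1462 ± 1066 CPM against 4104 ± 1530 for *Rps2*.

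The low end of the order held *Rpl30* and, beside it, 2 kinds of genes. The first were 5 members with at least 50% of their coding bases inside exons of another annotated gene, where HTSeq by default leaves reads that lie on both out of the counts of either. *Rpl24*, mutated in the Belly spot and tail mouse, shared 83.4% of its coding bases with the transcript *Gm28037* and had 5, 5 and 15 counts in replicates 1, 2 and 3. *Rps10* shared 80.1% with *RPS10-NUDT3* and had 100, 134 and 301 counts, where *Rps12* of the same beak had 31349, 38979 and 75840. *Rpl13a* shared 90.3% with *Gm45713* (265, 338 and 856 counts), *Rpl36al* 95.3% with *Gm49383* (48, 53 and 99 counts) and *Rpl23a* 55.3%, on the opposite strand, with *Tlcd1* (666, 805 and 1713 counts).

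All of these partners except *Tlcd1* had 0 counts in every library. *Tlcd1* had 151, 208 and 264. The 5 members had a median of 8.43 CPM per coding kb, against 1806 for the 73 members that share less and are no paralogs, of which the lowest was *Rpl30* at 210 ± 137. The levels of these genes are therefore uncertain, while their order of libraries was that of the other members in the 4 that were tested. Sharing of at least 50% of coding bases occurred in 5.95% of the members and in 3.95% of the other 21813 protein-coding genes.

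**Figure D5:**
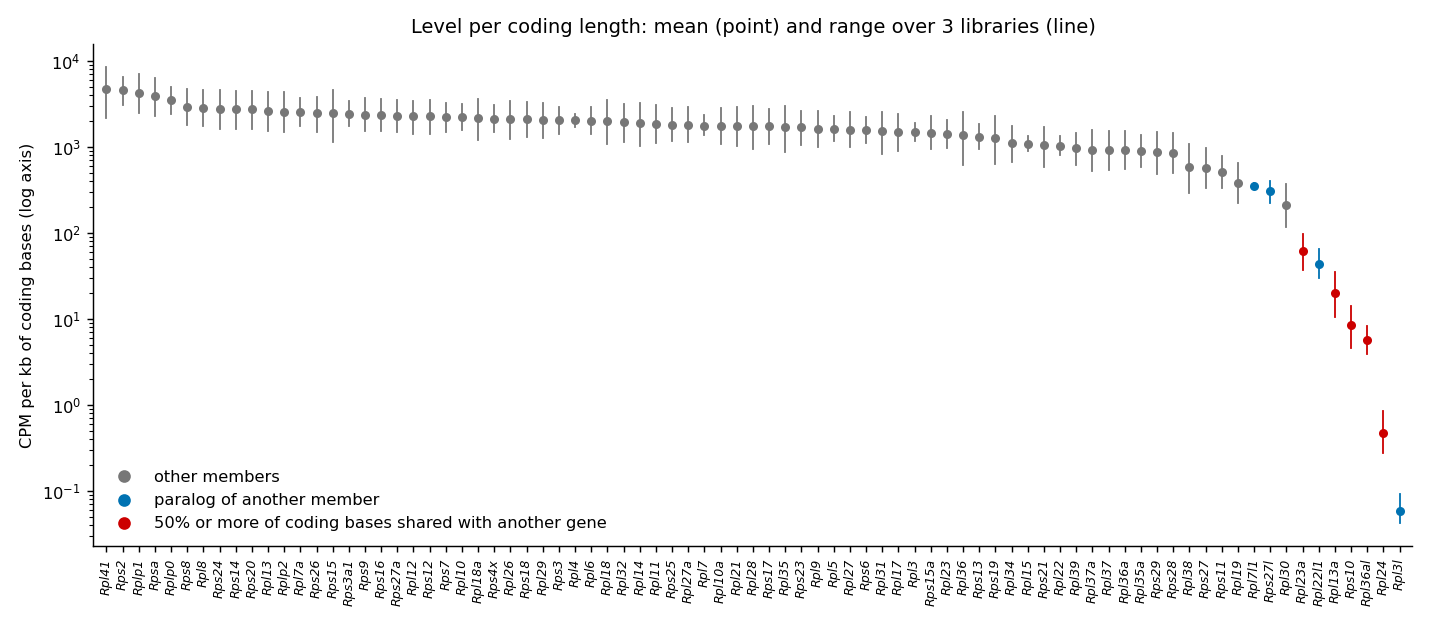
Mean level (point) and range over the 3 OE libraries (line) in CPM per kb of coding bases on a log axis, for 81 ribosomal protein genes with counts in every library, ordered by mean. The 5 genes sharing at least 50% of coding bases with another gene (red) and the paralogs (blue) lie at the low end, and the 72 others (grey) range from 210 (*Rpl30*) to 4630 (*Rpl41*).

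The second kind were paralogs, genes of their own that resemble another member. *Rpl3l*, *Rpl10l* and *Rpl39l*, known from heart and skeletal muscle for the first and from testis for the others, were at or near 0. *Rpl10l* had 0 counts in all 3 libraries, which allows up to 0.0775, 0.0837 and 0.0804 CPM (3 counts per library). *Rpl3l* had 2, 4 and 2 counts and *Rpl39l* 0, 3 and 13, against 64931, 71515 and 101634 for *Rpl3* and 3652, 4359 and 8299 for *Rpl39*. The other paralogs were present: *Rpl7l1* at 352 ± 27.8 CPM per coding kb beside 1760 ± 487 for *Rpl7*, *Rps27l*, which p53 induces, at 303 ± 91.0 beside 569 ± 343 for *Rps27*, and *Rpl22l1* at 43.9 ± 18.4 beside 1018 ± 278 for *Rpl22*. The 4 paralogs with enough counts to be tested were all higher in replicate 3, with log2 ratios from 0.18 to 0.96, at or below that of most members.

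The paralogs differ from their parents in sequence. Coding identity ran from 54.4% (*Rpl7* and *Rpl7l1*) over 67.5% (*Rpl22* and *Rpl22l1*), 73.2% (*Rpl3* and *Rpl3l*), 76.2% (*Rps27* and *Rps27l*), 84.7% (*Rpl10* and *Rpl10l*) and 85.0% (*Rpl39* and *Rpl39l*) to 87.7% (*Rpl36a* and *Rpl36al*), and in no pair was a window of 50 coding bases identical. A pair of equal coding length is shown whole, as it shows how many bases set apart a gene with at least 3652 counts in every library from a paralog with 13 at most. Capitals mark the 23 of 153 coding bases at which *Rpl39* and *Rpl39l* differ.
Rpl39: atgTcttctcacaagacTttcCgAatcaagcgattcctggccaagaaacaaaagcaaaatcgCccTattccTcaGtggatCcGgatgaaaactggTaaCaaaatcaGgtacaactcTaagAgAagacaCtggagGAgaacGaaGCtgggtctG
Rpl39l: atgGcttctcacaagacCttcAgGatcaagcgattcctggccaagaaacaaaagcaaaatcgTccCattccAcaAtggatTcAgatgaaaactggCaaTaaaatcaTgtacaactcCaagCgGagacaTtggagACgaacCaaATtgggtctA

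Copies of these mRNAs lie in processed pseudogenes and, in part, in annotated genes that overlap a member. In 37 of the 84 members at least 50% of the mRNA's windows of 100 bases occurred identically in transcripts of another annotated gene, and in 9 members no window did. The share was highest in *Rps27* (98.4%), *Rpl10* (91.6%) and *Rpl5* (91.1%, in part in transcripts of *Fam69a*), and *Rpl21* had windows in 39 pseudogenes. *Rpl22*, *Rpl32*, *Rps3*, *Rps21* and *Rps27l* were among those with none. Across members this share correlated with the level per coding kb at a Spearman's rho of -0.0719 and, among the 79, with the ratio in replicate 3 at 0.0363. The 301 pseudogenes named after members held 0.604, 0.587 and 0.707 counts per 100 counts of members in replicates 1, 2 and 3. Pseudogenes under other names were not in this figure, and reads that were not unique were counted for no gene. Reads that could not be placed uniquely were 3.08%, 4.77% and 5.19% of the counted reads, and reads on more than 1 gene 6.11%, 6.10% and 6.96%; their part in the members' shares was not tested.

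The members' median biological coefficient of variation, the spread between replicates beyond counting error, was 0.384 against 0.338 over all genes tested and 0.248 over genes of at least 100 CPM. *Rpl7l1* had the lowest value of the members (0.219) and *Rps15* the highest (0.505). Within each pair of libraries the members' median was below that of all genes. It was 0.141 against 0.209 without replicate 3, 0.283 against 0.316 without replicate 1 and 0.377 against 0.443 without replicate 2. These are tagwise values, which edgeR draws towards a trend over genes, the more so with few libraries. The pairs therefore cannot show whether members vary less than other genes. By DESeq2 gene-wise dispersions over the 3 libraries, the medians were 0.519 for members and 0.251 for all genes.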

How the data were processed

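RNA-Seq was measured in 3 libraries of poly(A) RNA from E10.5 maxillary processes, made with a kit that does not mark strand and read as pairs of 150 bases. Per the labels, reads were mapped to mm10 with STAR (2.7.3a) and counted per gene with HTSeq (0.12.4), FastQC being named too, and the authors deposited raw counts without normalization. Reads on no gene, on several genes or not unique have rows of their own, held 14.2%, 15.7% and 16.4% of the counted reads and were left out of library sizes. The annotation release behind the counts is not given in the sources used here: 55141 of 55401 identifiers had a row in GENCODE M21, which gave names, coordinates and lengths.

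Members and lists were chosen with earlier results of these data known. In the main account were the 5 highest and lowest per length, the 5 with the largest and smallest ratio between libraries, paralogs and groups of the ribosome. Wild-type libraries were not used here, so no test between genotypes was made. CPM used TMM scaling in edgeR 4.0.16, with a prior count of 2 on the log2 scale. Genes with mean counts of 10 or more were tested against counting noise by chi-square with Benjamini-Hochberg adjustment at 0.05, and the biological coefficient of variation came from edgeR's tagwise dispersion without covariates. The trend on exonic length and GC content used mgcv 1.9.3. Alternatives used DESeq2 1.42.0, other scalings, filters and lengths, and each replicate left out in turn. Windows were searched in GENCODE transcripts only, as no genome sequence was used here, and coding identity (Biopython 1.88) took the place of protein identity. The length of a representative mRNA was an alternative added after the data were seen. The steps were tested on simulated data. The languages were Python 3.11.15 and R 4.3.3, with matplotlib 3.10.9, pandas 2.3.3, scipy 1.17.1 and numpy 2.4.6. The adjusted p-values and the Wilson intervals take counting error as their only reference, and neither measures the spread between libraries. Some genes are counted in the totals but are neither named nor plotted by name here.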

Additional observations from a re-analysis of the deposited data

How the results depend on the processing

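The number of members beyond counting noise was 79 to 82 under other scalings and filters and 79 to 81 with 1 replicate left out. The median log2 ratio in replicate 3 was 1.20 with DESeq2 size factors, 1.26 with upper quartile scaling, 1.20 with TMM factors computed without the members and 1.03 without scaling factors, under which the median over all genes shifted to -0.16; it was 1.00 and 1.37 with 1 replicate left out. That of replicate 2 was -0.30 in full, -1 without replicate 1 and 0.38 without replicate 3, a change of sign, as only replicate 1, the lowest library of the members, is then left to compare with, and that of replicate 1 ran from -1.37 to -0.38. The share of counts was 6.57% over all counted reads and 6.01% to 8.99% with 1 replicate left out. The median level per length, 386 CPM per kb of exons, was 648 with the longest transcript, 1733 with coding bases and 1122 with a representative mRNA as the length, which follows from the smaller lengths, and 282 to 467 with 1 replicate left out. The median coefficient of variation was 0.519 by DESeq2 gene-wise dispersions, against 0.251 over all genes, and the cause of this shift was not tested. With 1 replicate left out it was 0.141 to 0.377. Windows of 50 and 150 bases gave 53 and 25 members with at least 50% found elsewhere. For single members, 559 of 560 ratios in replicate 3 under other settings moved by less than the spread between libraries, and none changed sign. No paired analysis was possible because the labels give 1 group only. With 3 libraries of 1 group no comparison of genotypes can be drawn from these values, and the levels of members that share bases with other genes are uncertain at any depth.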
